A study of Mus musculus with 9 samples.

Results

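Extracellular nucleotides act on macrophages through surface receptors and are broken down by surface enzymes, and 8 genes of this system are described here in RAW264.7 cells, a mouse macrophage line from a virus-induced tumour. They are the ATP-gated channels P2rx4 and P2rx7, the G protein-coupled nucleotide receptors P2ry2, P2ry6 and P2ry14, the adenosine receptors Adora2a and Adora2b, and the ectonucleotidase Entpd1. They were chosen by symbol as members of this system, and all 8 were found among the 53700 genes of the authors' comparison table. The rule itself names genes and uses no measured value, but it was written with earlier results of these samples known. By their titles the 9 samples form 3 groups of 3, which the titles call CON, LPS and ProNa. Lipopolysaccharide, or LPS, is the bacterial product that Toll-like receptor 4 senses, and the labels do not expand ProNa. All samples carry one treatment text, which describes 24 h with ProNa at 1 mM or without it and then LPS at 100 ng/mL for 12 h. The groups are taken as untreated cells (CON), cells with LPS alone (LPS) and cells with ProNa before LPS (ProNa), which the labels do not spell out sample by sample. There is then no group with ProNa but no LPS.

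ATP leaves stressed, activated or dying cells and opens P2X channels. P2Y receptors respond to ATP, UTP, UDP or UDP-glucose, depending on the receptor. Entpd1, also called CD39, cleaves ATP and ADP to AMP, and Nt5e, also called CD73, turns AMP into adenosine. Adenosine then acts on receptors that raise cAMP, as Adora2a and Adora2b do, or lower it, as Adora1 and Adora3 do. In macrophages P2rx7 is best known for triggering the NLRP3 inflammasome and the release of interleukin 1 beta, while adenosine receptors restrain inflammatory cytokine output.

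Levels are the authors' group means in FPKM, fragment counts scaled to transcript length and library size, summed over the transcripts of a gene. Changes and adjusted p-values are those of the authors' deposited table, read at a threshold of 0.05. Values per sample could not be assigned to samples, so a level is one mean per group, no SD can be given, and whether single samples of the groups overlap is not shown. The sources used here give no read totals, so depth is unknown. The labels do not say whether the 3 samples of a group were separate cultures, and the p-values may then reflect technical spread only. Of 10 macrophage markers, 9 reached at least 5 FPKM in some group, and the exception was Mertk, at most 0.04 FPKM. All 8 epithelial, 6 lymphocyte, 4 fibroblast and 4 endothelial markers stayed under 1 FPKM in every group, although the labels' extraction text speaks of colon. The summed level of the macrophage markers was 12863 FPKM in CON, 3503 FPKM in LPS and 4930 FPKM in ProNa. Most of that difference was Lyz2, a lysozyme gene, at 9719 FPKM in CON, 661 FPKM in LPS and 1586 FPKM in ProNa. The other 9 markers summed to 3145 FPKM in CON, 2842 FPKM in LPS and 3345 FPKM in ProNa. These sums hide opposite moves of single markers. Csf1r went from 888.0 FPKM in CON to 27.7 FPKM in LPS, and Cd14 from 757.0 to 1406.0 FPKM. Between LPS and CON 5 of the 10 markers were higher and 4 lower by the authors' deposited table, or 3 and 4 on the scale of mean FPKM used further on. Among all adjusted genes 28.1% were higher and 27.2% lower, or 22.1% and 34.6% on that scale. The part of these marker shifts in the results on the receptors was not tested. In bulk RNA a lower level can come from fewer cells that carry a transcript or from less of it per cell, and these cannot be told apart.

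With LPS the set changed its make-up more than its total. The 8 genes summed to 94.6 FPKM in CON, 101.0 FPKM in LPS and 84.3 FPKM in ProNa. In CON the UDP receptor gene P2ry6 held 60.8% of that sum, ahead of P2rx4 with 15.9% and P2rx7 with 14.8%. In LPS the order was P2rx4 with 38.1%, P2rx7 with 20.5%, P2ry2 with 19.6% and P2ry6 with 13.6%. In ProNa P2rx4 again led with 40.6%, followed by P2ry6 with 20.2%, P2rx7 with 14.6% and P2ry2 with 14.2%. Adora2b, Entpd1 and Adora2a were low in all 3 groups, at no more than 5.15 FPKM, and in CON P2ry2 was as low, at 3.02 FPKM. P2ry14 was listed at 0 throughout. Without a spread between samples, neighbours in these orders, such as P2rx7 and P2ry2 in LPS at 20.7 and 19.7 FPKM, cannot be called different.

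**Figure D1:**
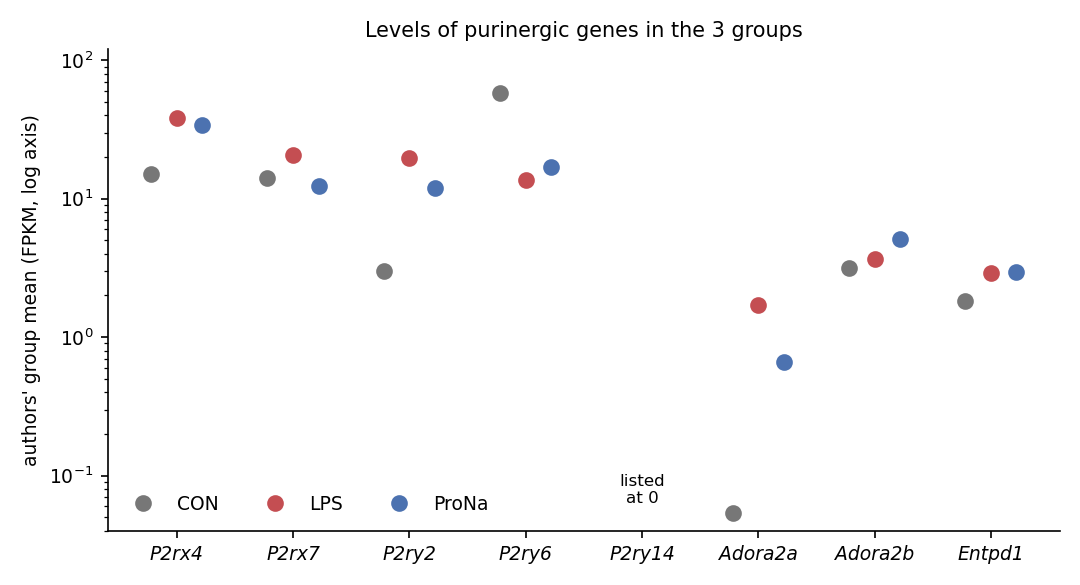
Authors' mean level of each gene in FPKM (log axis) in CON (grey), LPS (red) and ProNa (blue), 1 point per group mean. P2ry6 is highest in CON at 57.5 FPKM, P2rx4 is highest in LPS and ProNa at 38.5 and 34.3 FPKM, and P2ry14 is listed at 0.

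The first comparison, LPS against CON, asks how the cells responded to LPS. By the authors' deposited table, 5 of the 8 genes rose, P2rx4, P2rx7, P2ry2, Adora2a and Entpd1, and P2ry6 fell. Adora2b did not pass, and P2ry14 had no test. Calls were common in this comparison, with 55.4% of 17795 genes called, 28.1% higher and 27.2% lower. At least 2-fold changes made up 4 of the 6 calls, while 27.9% of all adjusted genes were both called and that large. The median log2 fold change was 0.78 over the 7 genes with an adjusted p and -0.02 over all genes so adjusted. In the second comparison, ProNa against LPS, P2rx7, P2ry2 and Adora2a were lower in ProNa, and P2ry6 and Adora2b were higher. P2rx4 and Entpd1 did not pass there. Across all genes 30.6% of 12732 were called, 16.5% higher and 14.1% lower, and the median log2 fold change was -0.12 over the 7 genes and 0.00 over all. None of the 5 calls between ProNa and LPS reached 2-fold, while 3.25% of all adjusted genes were both called and that large. In the third comparison, ProNa against CON, 5 genes were higher, P2ry6 was lower and P2rx7 did not pass, against 54.4% of 18540 genes called, 27.7% higher and 26.6% lower. Here 5 of the 6 calls were at least 2-fold, against 27.1% of all adjusted genes that were both called and that large. Both comparisons with LPS share the LPS samples, and both with CON share the CON samples, so the 3 sets of values are not independent of one another.

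In the median over all adjusted genes, the log2 ratios of mean FPKM, with a pseudocount of 0.5 FPKM, lay below the deposited log2 fold changes. Single genes could go the other way, as P2rx7 did for ProNa against LPS, at -0.73 against a deposited -0.79. The median gap was 0.23 for LPS against CON, 0.13 for ProNa against LPS and 0.35 for ProNa against CON. With that median subtracted, called here the FPKM scale, the share of higher genes among those called fell from 50.8% to 39.0%, from 53.9% to 30.1% and from 51.0% to 34.1% in the 3 comparisons. On that scale each of the calls named above kept its direction and stayed past the threshold. For ProNa against LPS, Adora2b and P2ry6 passed only narrowly, at rederived adjusted p-values of 0.0487 and 0.0374. P2rx4 was then also lower in ProNa than in LPS, and P2rx7 in ProNa than in CON. The 8 genes thus held 5 higher and 1 lower for LPS against CON, where 56.7% of all genes were called on that scale, 22.1% higher and 34.6% lower. For ProNa against LPS they held 2 higher and 4 lower, where 36% were called, 10.8% higher and 25.2% lower. For ProNa against CON they held 5 higher and 2 lower, where 56.7% were called, 19.3% higher and 37.3% lower.

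**Figure D2:**
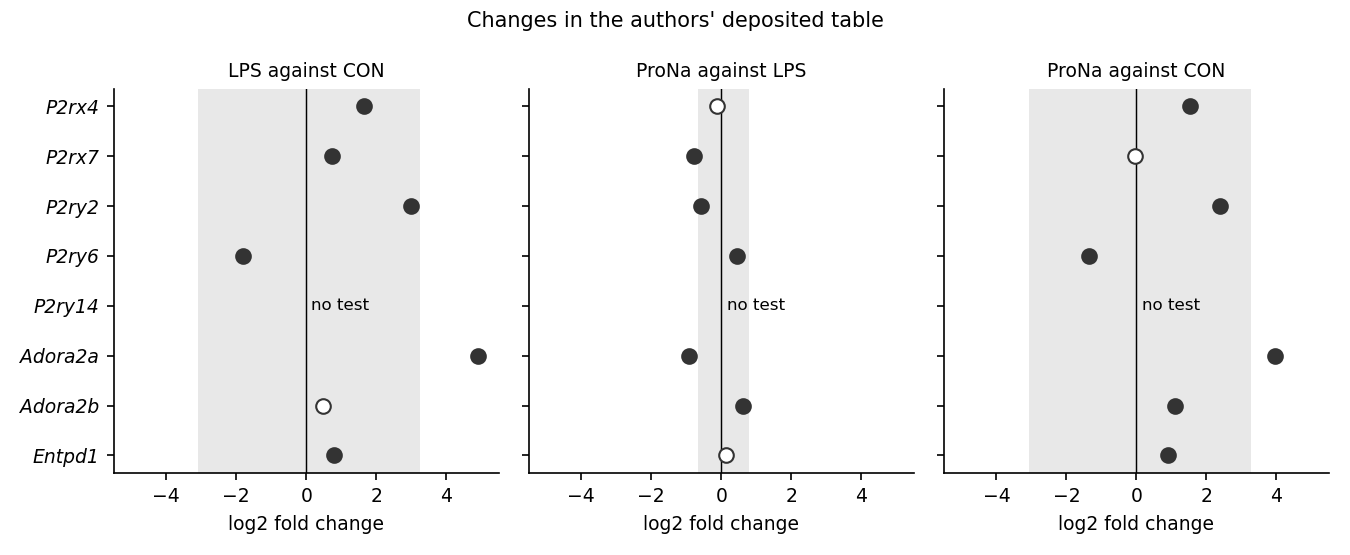
Log2 fold change of each gene in the authors' deposited table for the 3 comparisons. Filled points have an adjusted p under 0.05, open points do not, and the grey band spans the central 90% of all genes with an adjusted p. P2rx4, P2rx7, P2ry2 and Adora2a lie right of 0 for LPS against CON and left of 0 for ProNa against LPS. The P2rx4 point for ProNa against LPS is open.

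P2rx4 encodes an ATP-gated cation channel that in macrophages sits largely on lysosomes. Its mean was 15.1 FPKM in CON, 38.5 FPKM in LPS and 34.3 FPKM in ProNa. Both LPS-treated groups thus stood far above CON and close to each other. In the authors' deposited table it was 3.14-fold higher in LPS than in CON (adjusted p = 2.5e-58) and 2.89-fold higher in ProNa than in CON (adjusted p = 2.9e-69). Between ProNa and LPS the log2 fold change in the authors' deposited table was -0.12 (adjusted p = 0.282). On the FPKM scale that difference became -0.25 (adjusted p = 0.0109).

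P2rx7 encodes the low-affinity ATP channel that opens a route for potassium loss. Its mean was 14 FPKM in CON, 20.7 FPKM in LPS and 12.3 FPKM in ProNa, so LPS stood above both other groups. By the authors' deposited table it was 1.68-fold higher in LPS than in CON (adjusted p = 1.6e-11) and 1.73-fold lower in ProNa than in LPS (adjusted p = 1.5e-10). Between ProNa and LPS 3.15% of all adjusted genes had a lower log2 fold change. For ProNa against CON the log2 fold change was -0.04 (adjusted p = 0.777) in the authors' deposited table and -0.39 (adjusted p = 5.17e-05) on the FPKM scale.

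P2rx7 and P2rx4 are next to each other among coding genes on chromosome 5 in the RefSeq annotation of GRCm38.p6, so their start regions are shown together as the stretches upstream of a neighbouring pair that rose with LPS. The RefSeq table of that build holds start windows for 6 of the 8 genes. Each run below is the 250 bases upstream of an annotated start, on the plus strand, read 5′ to 3′, with any motif match in capitals.
P2rx7, chr5:122643677-122643926: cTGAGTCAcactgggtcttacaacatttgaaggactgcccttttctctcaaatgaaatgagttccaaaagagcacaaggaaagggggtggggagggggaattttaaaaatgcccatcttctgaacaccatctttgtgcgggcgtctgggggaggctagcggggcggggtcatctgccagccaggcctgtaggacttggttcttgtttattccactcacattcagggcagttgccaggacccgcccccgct
P2rx4, chr5:122707294-122707543: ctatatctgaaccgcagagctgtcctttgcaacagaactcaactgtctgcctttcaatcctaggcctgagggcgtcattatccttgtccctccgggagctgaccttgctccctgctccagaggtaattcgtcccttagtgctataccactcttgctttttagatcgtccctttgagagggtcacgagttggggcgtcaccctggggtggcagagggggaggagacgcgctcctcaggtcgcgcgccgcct
The motifs searched on both strands were AP-1 TGANTCA, GAS TTCNNNGAA, CRE TGACGTCA, an ISRE core of GAAA given 2 times with 2 bases between, and 2 forms of the kB site, GGG and TTTCC or GGGA and TTCC with 2 bases between. The P2rx7 window holds 1 match, the AP-1 form TGAGTCA at base 2 of the window, a motif found in 6.75% of all 32851 windows of that length. No motif matched in the P2rx4 window, or in a second P2rx7 window at a start downstream. Among 12 windows of the 6 genes, 3 held a match, all of AP-1, and the other two belong to P2ry14, which was listed at 0. The remaining motifs are found in 1.55% to 7.02% of all windows. A match describes letters only.

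P2rx4 overlaps Camkk2, a kinase gene next to it, in that annotation. The sources used here do not say how strand was handled, so reads of the overlap could count for either gene. Camkk2 moved the other way: its mean was 55.9 FPKM in CON, 11.5 FPKM in LPS and 15.0 FPKM in ProNa, with -2.53 as its log2 fold change for LPS against CON in the authors' deposited table (adjusted p = 3.3e-248).

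The other P2X genes were low. P2rx5 was the only further P2X gene called, at 0.26 FPKM in CON, 2.08 FPKM in LPS and 1.65 FPKM in ProNa, and 11.0-fold higher in LPS than in CON in the authors' deposited table (adjusted p = 9.7e-19). P2rx1, P2rx2, P2rx3 and P2rx6 did not exceed 0.117 FPKM in any group. Of the 7 P2X genes, 5 had an adjusted p for LPS against CON and 3 of these rose, where 28.1% of all adjusted genes did. For ProNa against LPS, where 30.6% of all adjusted genes were called, 3 had an adjusted p and P2rx7 alone was called. P2rx4 joined it on the FPKM scale.

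P2ry2 and P2ry6, both Gq-coupled in textbook accounts, moved in opposite directions. P2ry2 encodes the receptor for ATP and UTP. Its mean was 3.02 FPKM in CON, 19.7 FPKM in LPS and 12.0 FPKM in ProNa, so ProNa lay between the other two. In the authors' deposited table it was 7.93-fold higher in LPS than in CON (adjusted p = 1.9e-125), 1.51-fold lower in ProNa than in LPS (adjusted p = 1.3e-08) and 5.28-fold higher in ProNa than in CON (adjusted p = 6.3e-82). P2ry2 had a higher log2 fold change than 94.4% of all adjusted genes for LPS against CON.

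P2ry6 encodes the UDP receptor. Its mean was 57.5 FPKM in CON, 13.7 FPKM in LPS and 17.0 FPKM in ProNa, so both LPS-treated groups were far below CON. In CON 91.7% of the genes above 0 were lower than P2ry6, and in LPS 73.2% were. The authors' deposited table gave a 3.47-fold lower value in LPS than in CON (adjusted p = 7.5e-48), a 1.37-fold higher value in ProNa than in LPS (adjusted p = 0.00297) and a 2.52-fold lower value in ProNa than in CON (adjusted p = 5.9e-61). The change between ProNa and LPS is small beside the change with LPS, and ProNa stayed much nearer to LPS than to CON.

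P2ry2 and P2ry6 are also next to each other among coding genes, on chromosome 7. In CON the P2ry6 mean was the higher of the pair, 57.5 against 3.02 FPKM, and in LPS it was the lower, 13.7 against 19.7 FPKM. In ProNa it was the higher again, 17.0 against 12.0 FPKM. The next coding gene on the other side of P2ry2, Fchsd2, had a log2 fold change of -1.42 for LPS against CON in the authors' deposited table (adjusted p = 3.7e-21). The 250 bases upstream of the first annotated P2ry2 start, on the minus strand in GRCm38.p6, are shown because P2ry2 had a larger LPS rise than P2rx4 and P2rx7, the other nucleotide receptors among the 8 genes that rose.
P2ry2, chr7:101012054-101012303: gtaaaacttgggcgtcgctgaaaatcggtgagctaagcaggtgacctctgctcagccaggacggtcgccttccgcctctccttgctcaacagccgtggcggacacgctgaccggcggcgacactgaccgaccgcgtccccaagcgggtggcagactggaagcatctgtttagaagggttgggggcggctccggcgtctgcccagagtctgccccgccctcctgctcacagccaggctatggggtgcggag
None of the motifs matched in this window or in the second P2ry2 window, which overlaps it. P2ry6 and Adora2a had no entry in the table of start windows.

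P2ry14, the UDP-glucose receptor gene, was listed at 0 FPKM for all 9 of its transcripts in all 3 groups. Of the other P2Y genes, P2ry1, P2ry4, P2ry10, P2ry12 and P2ry13 did not exceed 0.01 FPKM. P2ry10b, a relative of P2ry10, was the one further P2Y gene at a clear level, with 18.0 FPKM in CON, 22.8 FPKM in LPS and 28.5 FPKM in ProNa. By the authors' deposited table it was 1.56-fold higher in LPS than in CON (adjusted p = 1.1e-11) and 1.38-fold higher in ProNa than in LPS (adjusted p = 2.3e-06).

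Adora2a encodes the high-affinity adenosine receptor that raises cAMP. It was near the floor in CON at 0.0533 FPKM, reached 1.70 FPKM in LPS and stood at 0.66 FPKM in ProNa. In the authors' deposited table it was 29.9-fold higher in LPS than in CON (adjusted p = 2.3e-13), 15.7-fold higher in ProNa than in CON (adjusted p = 1.2e-07) and 1.91-fold lower in ProNa than in LPS (adjusted p = 0.0212). These deposited folds rest on the lowest levels of any detected member. With a pseudocount of 0.5 FPKM the log2 ratio of the means was 1.99 for LPS against CON, in place of the deposited 4.90, and 1.07 for ProNa against CON, in place of 3.97. Adora2a has the largest deposited folds of the 8 genes, but with that pseudocount P2ry2 was higher in both comparisons with CON, at 2.52 and 1.82. This order depends on the pseudocount. With 0.1 FPKM Adora2a led, at 3.56 and 2.31 against 2.67 and 1.95 for P2ry2. With 1 FPKM P2ry2 led, at 2.37 and 1.69 against 1.36 and 0.66 for Adora2a.

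Adora2b encodes a receptor that also raises cAMP but needs more adenosine. Its mean was 3.17 FPKM in CON, 3.68 FPKM in LPS and 5.15 FPKM in ProNa, so ProNa was the highest group. Between LPS and CON it did not pass, with a log2 fold change of 0.49 in the authors' deposited table (adjusted p = 0.0557). By the authors' deposited table it was 1.53-fold higher in ProNa than in LPS (adjusted p = 0.012) and 2.15-fold higher in ProNa than in CON (adjusted p = 1.2e-07). Adora2a and Adora2b thus had opposite signs between ProNa and LPS, with log2 fold changes of -0.93 and 0.62 in the authors' deposited table. On the FPKM scale these were -1.06 (rederived adjusted p = 0.00629) and 0.49 (rederived adjusted p = 0.0487). Zswim7, the next coding gene after Adora2b on chromosome 11, had 12.9 FPKM in CON, 14.1 FPKM in LPS and 21.3 FPKM in ProNa, with a log2 fold change of 0.73 for ProNa against LPS in the authors' deposited table (adjusted p = 6.6e-04).

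Adora3, whose receptor lowers cAMP, was at a level like that of Adora2b. It had 1.41 FPKM in CON, 3.46 FPKM in LPS and 3.18 FPKM in ProNa and was 3.07-fold higher in LPS than in CON in the authors' deposited table (adjusted p = 5.2e-12). Between ProNa and LPS its log2 fold change in the authors' deposited table was 0.01 (adjusted p = 0.987). Adora1 was listed at 0 in all 3 groups.

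Entpd1, the surface enzyme that removes ATP and ADP, was low in every group. Its mean was 1.82 FPKM in CON, 2.90 FPKM in LPS and 2.97 FPKM in ProNa, with both LPS-treated groups at nearly one level. It was 1.72-fold higher in LPS than in CON (adjusted p = 3.3e-04) and 1.89-fold higher in ProNa than in CON (adjusted p = 1.4e-05) in the authors' deposited table. Between ProNa and LPS the log2 fold change was 0.13 (adjusted p = 0.64) by the authors' deposited table and 0.00 on the FPKM scale.

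The next enzyme in that chain was nearly undetected. Nt5e, which makes adenosine from AMP, had 0.0033 FPKM in CON, 0.02 FPKM in LPS and 0.0367 FPKM in ProNa. Entpd2, Entpd3, Entpd8, Enpp1, Enpp3, Alpl and Cd38 did not exceed 0.12 FPKM. Bst1, a surface enzyme that uses NAD, was the one abundant gene of this list, with 30.7 FPKM in CON, 43.8 FPKM in LPS and 62.5 FPKM in ProNa. In the authors' deposited table Bst1 was 1.65-fold higher in LPS than in CON (adjusted p = 3.7e-17) and 1.58-fold higher in ProNa than in LPS (adjusted p = 4.3e-15). Of 12 ectonucleotidase genes, 4 had an adjusted p for LPS against CON, and all 4 rose: Entpd1, Bst1, Enpp2 and Acpp. Of all adjusted genes 28.1% rose there. Enpp2 and Acpp stayed at or under 0.533 FPKM.

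FPKM values per transcript show which transcripts carry each gene, with types taken by transcript ID from GENCODE M21, an annotation of GRCm38. For P2rx7 a single assembled transcript of 4854 bases, built by the authors' pipeline and absent from the reference set, held 68.6% of the gene's level in CON, 65.4% in LPS and 56.5% in ProNa. Its level was 9.58 FPKM in CON, 13.5 FPKM in LPS and 6.94 FPKM in ProNa, the same order of groups as for the whole gene. The longest reference transcript of P2rx7, of 4936 bases, did not exceed 0.0267 FPKM. The reference transcripts together summed to 4.39 FPKM in CON, 7.05 FPKM in LPS and 5.35 FPKM in ProNa. Over these alone ProNa was above CON, with a log2 ratio of 0.26 in place of -0.18 over all transcripts, both with a pseudocount of 0.5. For ProNa against LPS that log2 ratio was -0.37 over the reference transcripts and -0.73 over all transcripts. A short coding transcript, P2rx7-202 of 712 bases, went in share from 2.74% in CON to 13.6% in LPS.

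P2rx4 was spread over more transcripts. P2rx4-201, a coding transcript of 2702 bases, had 6.54 FPKM in CON, 13.8 FPKM in LPS and 11.9 FPKM in ProNa. P2rx4-202, a coding transcript of 1887 bases, had 2.84, 12.4 and 9.92 FPKM in the same order, and its share of the gene was 18.8% in CON and 32.2% in LPS. Assembled transcripts held 12.4% of P2rx4 in CON, 12.7% in LPS and 9.02% in ProNa.

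P2ry2 was carried by P2ry2-201, with 67.3% of the gene in CON, 71.5% in LPS and 70.9% in ProNa, and by P2ry2-202, with 32.7%, 27.0% and 21.4% in that order. P2ry2-204, also coding, was listed at 0 in CON and LPS and had 0.743 FPKM in ProNa. P2ry6 was almost wholly P2ry6-201, with 97.7% in CON, 98.1% in LPS and 99.0% in ProNa. Entpd1 was shared by Entpd1-201, which went from 57.2% of the gene in CON to 37.1% in ProNa, and Entpd1-204, which went from 36.6% to 53.9%. The level of Entpd1-201 did not fall, at 1.04 FPKM in CON and 1.1 FPKM in ProNa. That of Entpd1-204 was 0.667 FPKM in CON and 1.6 FPKM in ProNa. These shares and levels come from group means with no test, and StringTie divides reads among overlapping transcripts by estimation.

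**Figure D3:**
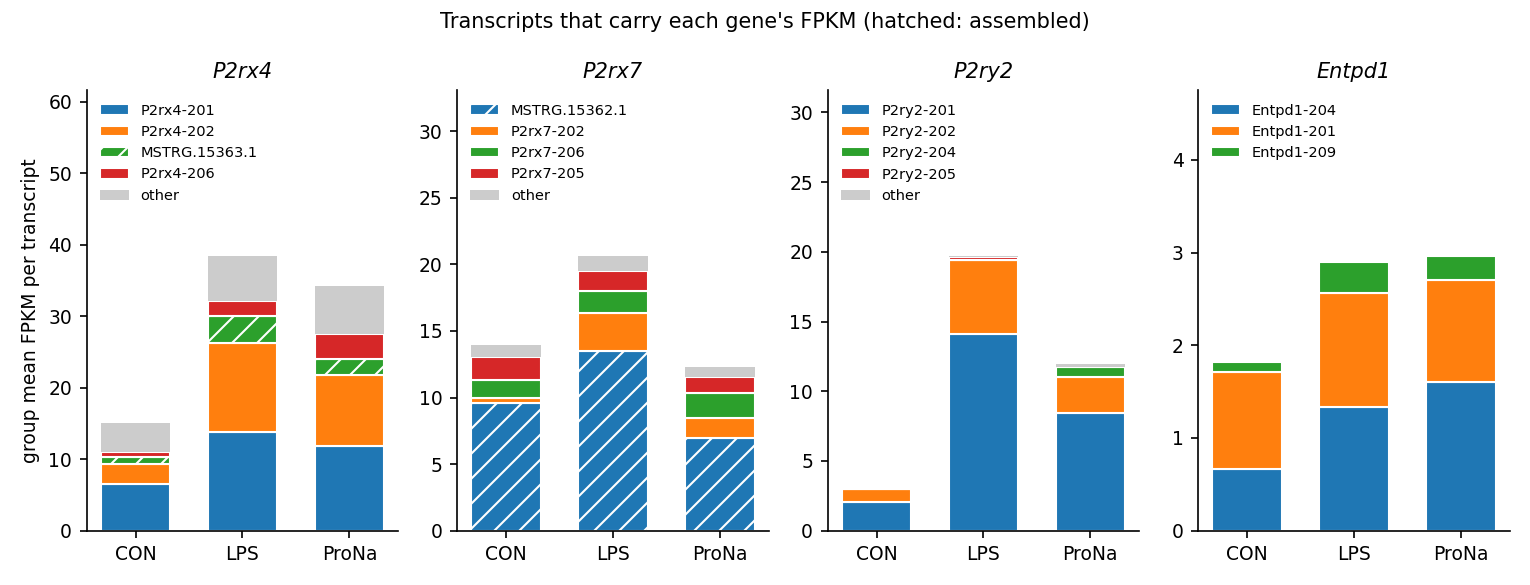
Group mean FPKM per transcript, stacked, for P2rx4, P2rx7, P2ry2 and Entpd1 in the 3 groups, with hatched bars for assembled transcripts and grey for all beyond the first 4. In P2rx7 the hatched transcript stands at 9.58 FPKM in CON, 13.5 FPKM in LPS and 6.94 FPKM in ProNa.

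Genes that release nucleotides went both ways. Of 15 listed, 10 had an adjusted p for LPS against CON, and 5 rose and 5 fell. Among all adjusted genes 28.1% rose and 27.2% fell. Panx1, a channel that lets ATP out, was 2.22-fold higher in LPS than in CON in the authors' deposited table (adjusted p = 2.9e-28), at 12.4 FPKM in CON, 19.6 FPKM in LPS and 24.1 FPKM in ProNa. It was 1.23-fold higher in ProNa than in LPS in the authors' deposited table (adjusted p = 0.00495), a call that was lost on the FPKM scale. Calhm2, a large-pore channel gene, went from 10.6 FPKM in CON to 2.52 FPKM in LPS and was 3.45-fold lower by the authors' deposited table (adjusted p = 1.4e-31). Slc17a9, the vesicular nucleotide transporter, had 7.34 FPKM in CON, 14.1 FPKM in LPS and 5.90 FPKM in ProNa, so LPS stood above both other groups, as for P2rx7. By the authors' deposited table Slc17a9 was 1.97-fold higher in LPS than in CON (adjusted p = 5.0e-20) and 2.17-fold lower in ProNa than in LPS (adjusted p = 4.0e-19). For ProNa against LPS this list had 3 genes higher and 3 lower, or 1 and 3 on the FPKM scale. The shares of all adjusted genes were 16.5% and 14.1%, or 10.8% and 25.2% on the FPKM scale.

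Genes of adenosine handling also went both ways. Of 12 with an adjusted p for LPS against CON, 6 rose and 4 fell, or 5 and 6 on the FPKM scale. The shares of all adjusted genes were 28.1% and 27.2%, or 22.1% and 34.6% on the FPKM scale. Slc29a1, the main equilibrative nucleoside transporter, had 34.4 FPKM in CON, 4.06 FPKM in LPS and 4.4 FPKM in ProNa and was 7.23-fold lower in LPS than in CON in the authors' deposited table (adjusted p = 6.2e-80). Slc28a2, a concentrative nucleoside transporter, went from 0.46 FPKM in CON to 5.47 FPKM in LPS, 18.0-fold higher in the authors' deposited table (adjusted p = 4.1e-50). Ampd3, an AMP deaminase, rose 20.7-fold in LPS in the authors' deposited table, from 4.31 to 69.5 FPKM, with an adjusted p listed as 0. Pnp, which splits inosine and guanosine, had 45.7 FPKM in CON, 141.0 FPKM in LPS and 314.0 FPKM in ProNa. It was 2.36-fold higher in ProNa than in LPS in the authors' deposited table (adjusted p = 7.6e-49). Ampd2, another AMP deaminase, had 73.2 FPKM in CON, 77.8 FPKM in LPS and 48.2 FPKM in ProNa and was 1.49-fold lower in ProNa than in LPS in the authors' deposited table (adjusted p = 5.1e-13).

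Of 9 genes that act with or after P2rx7 and had an adjusted p for ProNa against LPS, 5 were higher in ProNa by the authors' deposited table and the other 4 did not pass. On the FPKM scale 5 were higher and 1 was lower. Among all adjusted genes 16.5% were higher and 14.1% lower, or 10.8% and 25.2% on the FPKM scale. Nlrp3, the inflammasome sensor, had 12.1 FPKM in CON, 21.5 FPKM in LPS and 38.7 FPKM in ProNa. Casp1, the protease it activates, had 90.5, 169.0 and 228.0 FPKM in the same order. Gsdmd, the pore former, had 88.0, 51.5 and 83.4 FPKM, with ProNa 1.75-fold above LPS in the authors' deposited table (adjusted p = 2.2e-18). Pycard, the adaptor that joins sensor and protease, did not exceed 0.04 FPKM in any group, and it is named here after its values were seen. Il1b, the interleukin 1 beta gene, had 0.113 FPKM in CON, 225.0 FPKM in LPS and 293.0 FPKM in ProNa. Between ProNa and LPS it did not pass in the authors' deposited table (adjusted p = 0.141). For LPS against CON 4 genes of this list rose and 4 fell, where 28.1% and 27.2% of all adjusted genes did.

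Among the G proteins and phospholipases that serve these receptors, 6 of 10 with an adjusted p for LPS against CON fell and 2 rose. Their median log2 fold change was -0.43, against -0.02 over all adjusted genes, of which 27.2% fell and 28.1% rose. Gnaq, a G protein of the P2ry2 and P2ry6 type, went from 45.2 FPKM in CON to 31.6 FPKM in LPS and was 3.03-fold lower by the authors' deposited table (adjusted p = 8.4e-126), so its fold there exceeds the ratio of its means. Plcb4, a phospholipase that such proteins activate, went from 47.5 to 8.69 FPKM, 4.80-fold lower in the authors' deposited table (adjusted p = 9.9e-150). Gnai3, 1 of the 2 that rose, went from 60.8 FPKM in CON to 93.7 FPKM in LPS. It was 1.86-fold higher there by the authors' deposited table (adjusted p = 2.2e-58). Gna15, a promiscuous G protein of blood cells, was lower in LPS and 1.64-fold higher in ProNa than in LPS in the authors' deposited table (adjusted p = 8.9e-07), at 19.1 FPKM in CON, 7.15 FPKM in LPS and 10.1 FPKM in ProNa. For ProNa against LPS 3 of 10 were higher by the authors' deposited table and the other 7 did not pass, while on the FPKM scale 2 were higher and 3 lower. The shares of all adjusted genes were 16.5% higher and 14.1% lower, or 10.8% and 25.2% on the FPKM scale. In the cAMP list 6 of 18 rose and 8 fell with LPS, or 5 and 8 on the FPKM scale. All adjusted genes gave 28.1% and 27.2%, or 22.1% and 34.6% on the FPKM scale. Adcy7, an adenylyl cyclase of blood cells, had 57.3 FPKM in CON, 25.7 FPKM in LPS and 37.2 FPKM in ProNa. Pde4b, which degrades cAMP and is known to respond to LPS, rose from 3.71 to 9.90 FPKM, while Pde4a fell from 13.1 to 2.51 FPKM.

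**Figure D4:**
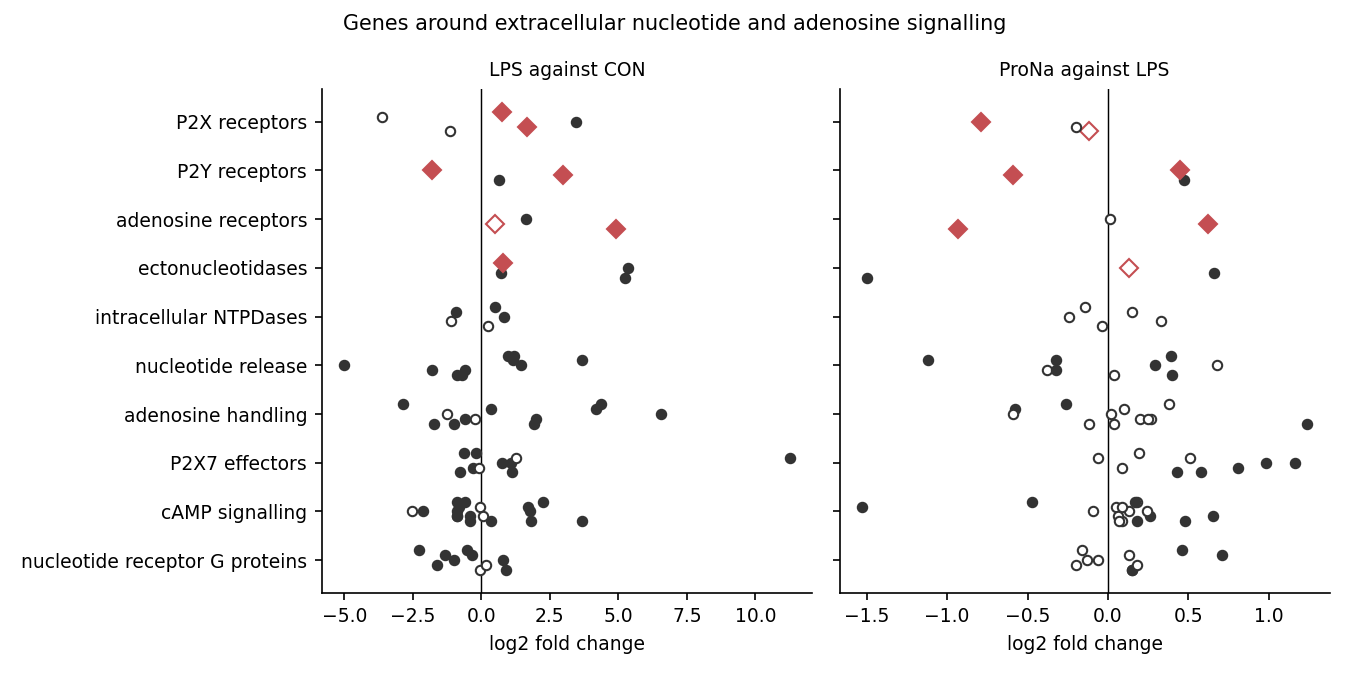
Log2 fold changes in the authors' deposited table for genes of 10 lists, with LPS against CON at left and ProNa against LPS at right. Filled symbols have an adjusted p under 0.05 and red diamonds are the genes chosen here. Of these, P2rx4, P2rx7, P2ry2 and Adora2a lie right of 0 on the left panel and left of 0 on the right panel. The P2rx4 diamond on the right panel is open.

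The genes whose log2 fold changes in the first 2 comparisons lay nearest to those of each member were sought among 8819 genes with a mean of at least 5 FPKM. The distance is Euclidean on the log2 scale and rests on 3 group means. For P2rx7 the nearest were Gsdme at 0.041, Gm43737 at 0.07 and Cd83 at 0.076. For P2ry2 they were Cebpb at 0.049, Mid1-ps1 at 0.094 and Plpp5 at 0.106, and for P2ry6 Hddc2 at 0.033, Cebpa at 0.055 and Fcna at 0.062. Cebpb and Cebpa encode related transcription factors of myeloid cells. Cebpb stood at 14.3 FPKM in CON, 94.8 FPKM in LPS and 55.4 FPKM in ProNa, whereas Cebpa had 12.8, 3.10 and 3.99 FPKM. For Adora2a the nearest were Pla2g5 at 0.174, Hmox1 at 0.208 and Gdnf at 0.241. P2rx4 had Ero1a, Jdp2 and Fbxo30 within 0.036, Adora2b had Slc25a12, Npc2 and Gm6851 within 0.041, and Entpd1 had Btbd10, Elob and Tpm1 within 0.024. Adora2a, Adora2b and Entpd1 were themselves under the minimum of 5 FPKM.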

How the data were processed

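RNA of 9 RAW264.7 samples was sequenced, and the submitters' processing notes name HISAT2, StringTie and DESeq2 with build GRCm39 and no versions. The deposited matrix gives FPKM per transcript for 153363 transcripts, 12638 of them assembled, per the file headers. Group means are the authors' own, from the columns headed by the group names. Another 9 columns have names found in no label and were left out, so no fit to samples was possible, and the design fixed the authors' tests as the main result. The deposited table gives log2 fold changes, p-values and adjusted p-values per gene and comparison, per the file headers. Benjamini-Hochberg adjustment over 17795, 12732 and 18540 genes gives its adjusted p-values, and genes listed at exactly 1 were treated as having none. A further deposited file, an annotation text per transcript, was not used; transcript types came from GENCODE M21 and neighbouring genes from RefSeq. FPKM were summed by gene ID. Rederived p-values on the FPKM scale assume the error that each deposited fold change and p-value imply. A run on simulated data was given the shift in advance and so checked only the arithmetic. Whether the median gap is the right shift was not tested. The members and the gene lists were chosen with earlier results of these data known. Named list genes had at least 5 FPKM in a group and were among the 4 smallest adjusted p-values per list and comparison, or were relatives of a member. Scripts used Python 3.11.15, pandas 2.3.3 and scipy 1.17.1. Promoter stretches come from RefSeq, build GRCm38.p6; GRCm39 coordinates of the genes were not used here.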

Additional observations from a re-analysis of the deposited data

How the results depend on the processing

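Of the alternatives planned, an adjusted p under 0.01 left 3 of the 5 calls in ProNa against LPS, 1 higher and 2 lower, and a change of at least 2-fold left 0 of them. The calls lost at 0.01 were those of Adora2a and Adora2b. At an unadjusted p under 0.05 with DESeq2's deposited values, 5 members passed in that comparison and 0 with at least 2-fold. The counts of called members in the other two comparisons stayed between 4 and 7 under every alternative run. The share of all genes called was not worked out at an adjusted p under 0.01 or at an unadjusted p. Nor was it worked out over genes of at least 1 FPKM. The member counts at these settings therefore cannot be set against genes in general. Adjustment over genes of at least 1 FPKM in either group compared gave 7 calls for LPS against CON, with Adora2b among the higher ones. It gave 5 for ProNa against CON. There Adora2a was removed by the filter, at 0.66 FPKM in ProNa and 0.0533 FPKM in CON, and so was not tested. For LPS against CON it was kept only through its LPS level. Of 105 recomputed values of single members, 92 kept their direction and their side of the threshold or moved by less than 1.5-fold, 10 moved by more, 2 passed the threshold only on the FPKM scale and 1 turned sign. The last was P2rx7 in ProNa against CON, at 0.26 over reference transcripts against -0.04 in the deposited table. The value of 0.26 is a ratio of means without a test, and that of -0.04 was not called. On the FPKM scale this difference was -0.39 and called lower (rederived adjusted p = 5.17e-05). The moved values were those of Adora2a and P2ry2 as log2 ratios with a pseudocount. No paired analysis was possible because values per sample could not be assigned to samples, and leaving out single replicates was not run for the same reason. Depth is unknown, which limits most what can be said of Adora2a, Entpd1 and the transcripts under 1 FPKM.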
